A study of Homo sapiens with 12 samples.

Results

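The comparison described here is radiation alone against sham exposure in MSTO-211H cells that received vehicle. It covers every protein-coding gene that averaged 1 FPKM or more across the study's 12 libraries, which 10751 of the 19951 in the table did. FPKM is the number of reads of a gene scaled to its length and to the library. MSTO-211H is an established human mesothelioma line, here kept in suspension in medium with growth factors, and the submitters call these cells mesothelioma-initiating. Cells were given vehicle or 10 µM of a compound named only as QTP, were exposed to 4 Gy or to a sham the next day, and gave RNA 48 h after exposure. The 3 Con libraries are vehicle with sham exposure and the 3 IR libraries are vehicle with 4 Gy. Rx and Combo, with 3 libraries each, were read as QTP with sham and QTP with 4 Gy, because the other titles account for the other arms. The labels do not state whether libraries of 1 group are separate cultures, and the p-values therefore reflect library-to-library spread that may be technical. All 12 libraries come from 1 cell line.

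Ionising radiation breaks DNA, and the kinases that sense the breaks stabilise p53, a transcription factor that switches on genes of cell cycle arrest, repair and death. The p21 protein, encoded by CDKN1A, then blocks cyclin-dependent kinases, so that RB family proteins stay bound to E2F and the DREAM complex keeps cell cycle genes off. Genes of DNA synthesis are mostly controlled through E2F sites, and genes of mitosis through a CHR element with CCAAT boxes nearby.

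The irradiated cells had higher levels of p53 target genes, of some histone genes and of lysosomal genes, and lower levels of genes for mitosis, DNA replication and homologous recombination. The differences were small beside the spread between libraries. No gene passed an adjusted p of 0.05 by limma on log2(FPKM + 1) over the 13038 genes tested, and the lowest adjusted p among protein-coding genes was 0.621. At an unadjusted p under 0.05, limma gave 405 protein-coding genes higher after radiation, 3.77% of those tested, and 293 lower, 2.73%. In 631 genes (5.87%) all 3 IR libraries lay above all 3 Con libraries, and in 514 (4.78%) all lay below. The median difference over all members was 0.01 on the log2(FPKM + 1) scale, and the 5th and 95th percentiles were -0.21 and 0.23. A higher mean was found in 5823 members (54.2%) and a lower one in 4928. The standard error of a gene was 0.10 at the median, and 45 genes differed by more than 0.5, 30 of them higher and 15 lower. Every difference below is IR minus Con on this log2 scale unless it is called a level, and no gene named below passed the adjusted test.

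The balance of higher and lower genes differed between some ways of treating the values. Over all biotypes, 481 genes (3.69% of those tested) were higher and 413 (3.17%) lower at an unadjusted p under 0.05 with the deposited FPKM. With median-of-ratios scaling the split was 471 and 437, and with quantile normalization it was 404 and 445. After rescaling to TPM it was 115 higher and 920 lower. With limma voom on the reads recovered from the FPKM, which changes the model as well, it was 200 and 781. Rescaling to TPM lowered the difference of the median gene by 0.103, so values under it are given relative to that shift. The voom fits moved the difference of the median gene by -0.055, and values under voom are not corrected for it.

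The 6 libraries held 13188257 to 16269195 reads over genes. Mitochondrial genes took 6.73% to 10.5% of them, and IR 3 combined the highest share with the smallest number of detected genes (23102). IR 3 also stood apart on the first principal component (37% of the variance), at 27.79, with IR 1 and Con 1 at -18.48 and -14.84. The lists described at most length, and the genes that moved most with IR 3, are given also without it. Same-numbered Con and IR libraries deviated together, so the differences IR 1 minus Con 1, IR 2 minus Con 2 and IR 3 minus Con 3 are given as pairs 1, 2 and 3.

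The cells carried the simple keratins KRT8 and KRT18 at means of 529.5 and 585 FPKM in Con, and the mesothelial genes MSLN and CALB2 at 38.2 and 25.3. Of 13 mesothelial markers 5 averaged over 1 FPKM, and WT1 (0.787 in Con) and KRT5 (1.15) were low. The keratins KRT7 and KRT19, also among the 13, were lower still, at 0.398 and 0.0579 FPKM in Con. PDPN, another mesothelial marker, had no reads in these libraries. None of 5 immune, 4 endothelial or 2 red cell markers averaged over 1 FPKM in them. Their summed levels were at most 0.0830, 0.167 and 0.943 FPKM in any Con or IR library. Of 5 fibroblast markers, LUM, PDGFRB and THY1 averaged over 1 FPKM, with sums of 11 to 11.5 in Con and 12.1 to 12.3 in IR. In bulk RNA, fewer cells of a kind and less RNA per cell cannot be told apart.

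Of 46 listed p53 targets 41 were measured, and 37 of them had a higher mean after radiation, where 54.2% of all members had. Their median difference was 0.17. In 16 of the 41 (39.0%) the groups did not overlap and IR was higher, where 5.87% of all members did so, and in 0 was IR the lower group. CDKN1A, the p21 gene (chromosome 6, 36676460 to 36687339, hg38), stood at 135, 151 and 157 FPKM in Con 1, 2 and 3 and at 182, 221 and 220.4 in IR 1, 2 and 3. Every irradiated library lay above every sham library, and the difference was 0.49 (SE 0.11) with an adjusted p of 0.631 by limma. BTG2, an antiproliferative p53 target (chromosome 1, 203305491 to 203309602), was at 16.1, 15.3 and 15.8 FPKM in Con and at 21, 20.7 and 22.3 in IR, a difference of 0.41 (SE 0.10). Its levels were tight within each group and did not overlap between them. MDM2, the ligase that returns p53 to low levels, was at 28.3, 26.9 and 34.4 FPKM in Con and at 36.8, 34.5 and 39.9 in IR. Con 3 (34.4) and IR 2 (34.5) nearly met, and the difference was 0.31 (SE 0.15). PLK2, a kinase that p53 induces, was abundant and higher in each IR library, at 178, 171 and 181 FPKM in Con against 195, 208 and 219.9 in IR. GDF15, a secreted stress cytokine, was at 81.5, 87.1 and 92.2 FPKM in Con and at 96.2, 138 and 131 in IR, so IR 1 sat close to the sham libraries. PPM1D, the phosphatase that turns the response off, differed by only 0.16 (SE 0.10) with overlapping groups.

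**Figure D1:**
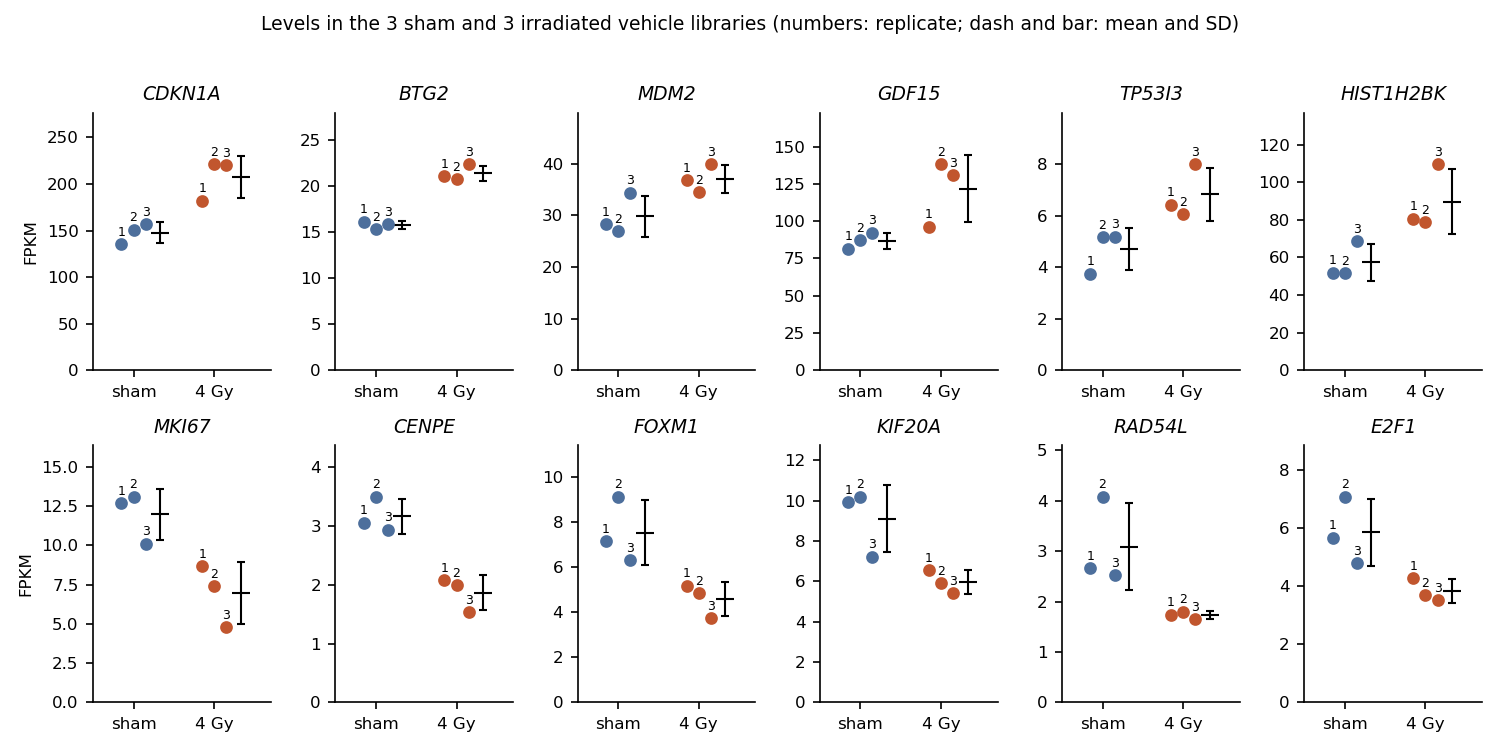
Levels of 12 genes in FPKM (vertical axis, from 0) in the 3 sham and the 3 irradiated vehicle libraries. Each numbered point is 1 library, and the dash with its bar is the mean and SD of the group. The panels show picked genes whose groups do not overlap. The 5 p53 targets and HIST1H2BK sit higher after 4 Gy, and the 6 cell cycle and repair genes lower. Of all measured genes, the groups did not overlap in 16 of 41 p53 targets and 45 of 110 mitotic genes.

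Among p53 targets of repair and metabolism, TP53I3, a quinone oxidoreductase gene, had the most different levels, at 3.75, 5.17 and 5.18 FPKM in Con against 6.43, 6.06 and 7.99 in IR (difference 0.46, SE 0.16). DDB2, which recognises ultraviolet damage, was at 18, 17.1 and 15.7 FPKM in Con and 18.8, 19.2 and 20.5 in IR (0.19, SE 0.08). SESN1, a stress-induced inhibitor of growth signalling, differed by 0.22 (SE 0.10), with the groups apart. RRM2B, the p53-induced ribonucleotide reductase subunit, differed by 0.21 (SE 0.12) and FDXR by 0.20 (SE 0.13), both with overlapping groups. Of the 13 measured genes of this list 12 had a higher mean. In 4 (30.8%) IR lay wholly above Con, where 5.87% of all members did so.

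Among p53 targets of death and the cell surface, 12 of 14 had a higher mean. In 5 (35.7%) IR lay wholly above Con, where 5.87% of all members did so. FAS, the death receptor, was at 4.09, 3.56 and 4.40 FPKM in Con and 5.10, 4.88 and 5.17 in IR (0.27, SE 0.09). BBC3, which encodes the BH3-only protein PUMA, was at 12, 10.9 and 11.2 FPKM in Con and 13.7, 13 and 13.4 in IR (0.22, SE 0.08). BLOC1S2, listed here as a target of this kind, differed by 0.35 (SE 0.08) and PERP, a desmosome protein, by 0.21 (SE 0.08), both with IR apart above Con. BAX and TNFRSF10B, which encodes a TRAIL receptor, differed by 0.14 (SE 0.10) and 0.08 (SE 0.06), with overlapping groups, and BAX by 0.06 without IR 3.

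The p53 targets were similar across the pairs, with medians of 0.13, 0.18 and 0.21 in pairs 1, 2 and 3, and 28 of the 41 (68.3%) were higher in every pair, against 20.1% of all members. Without IR 3 the median was 0.14, 37 of 41 had a higher mean, and the groups did not overlap in 20, where 9.62% of all members then did so. The full p53 response element, a pair of half-sites with a short spacer, was searched by its consensus. Of the 34 p53 list genes with a RefSeq promoter (250 bases before to 50 after the start), 1 held such a full site, and 0.0285% of all 35116 promoters did. It is the DDB2 site, shown with its half-sites in capitals because it is the 1 full match within the window, on the plus strand of GRCh38.p14 at chr11:47214979-47214999.
DDB2: GAACAAGCCCtGGGCATGTTT
A window of this size does not reach the distal sites through which many p53 targets are known to be controlled.

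Genes of mitosis were lower after radiation as a group. Of 116 genes on the 4 mitotic lists 110 were measured, 107 of them had a lower mean, and the median difference was -0.28. In 45 of the 110 (40.9%) every IR library lay below every Con library, where 4.78% of all members did so, and 36 had an unadjusted p under 0.05 by limma, where 2.73% of members did so in that direction. None of the 110 was higher at that p. MKI67, which encodes the Ki-67 antigen that coats mitotic chromosomes (chromosome 10, 128096659 to 128126385), was at 12.7, 13.1 and 10.1 FPKM in Con and at 8.67, 7.40 and 4.78 in IR. That difference of -0.73 (SE 0.21) was the most negative of any mitotic gene, with an adjusted p of 0.680 by limma. CENPE, the kinetochore motor that carries chromosomes to the spindle equator, was at 3.06, 3.50 and 2.94 FPKM in Con and 2.08, 1.99 and 1.53 in IR (-0.54, SE 0.11). When replicate number was added as a block over all 12 libraries, limma voom on the recovered reads called these 2 genes and no other. The values of voom are on another scale, log2 of reads scaled to the library. On it MKI67 was at -0.87 (SE 0.10, adjusted p = 0.0123 by limma voom) and CENPE at -0.81 (SE 0.11, adjusted p = 0.0421). With the same block on log2(FPKM + 1), limma called neither. MKI67 was at -0.73 there (adjusted p = 0.0953 by limma) and CENPE at -0.54 (adjusted p = 0.168), as without the block. Beyond Con with IR, same-numbered libraries did not all deviate together, with correlations from -0.207 (IR 3 and Combo 3) to 0.282 (Con 3 and Rx 3). With only Con and IR in the fit, the block on log2(FPKM + 1) gave 0 genes by limma, with a lowest adjusted p of 0.360.

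Among kinases, cyclins and their regulators, all 24 measured genes had a lower mean. In 7 (29.2%) IR lay wholly below Con, where 4.78% of all members did so. FOXM1, the transcription factor of the late cell cycle, was at 7.15, 9.13 and 6.31 FPKM in Con and 5.18, 4.85 and 3.73 in IR (-0.61, SE 0.14), with every irradiated library lower. AURKB, the kinase that corrects chromosome attachment, was at 9.44, 11.6 and 6.46 FPKM in Con and 5.86, 6.29 and 6.23 in IR (-0.48, SE 0.21), so Con 3 lay just above the irradiated libraries. PLK1, the kinase that drives mitotic entry, was at 5.41, 6.38 and 4.77 FPKM in Con and 4.47, 4.24 and 3.94 in IR (-0.32, SE 0.14). PKMYT1, which holds CDK1 inactive, and PLK4, which starts centriole duplication, differed by -0.37 (SE 0.14) and -0.34 (SE 0.15), with the groups apart. Of the best known of these genes, CCNB1, CDK1, AURKA and MYBL2 overlapped between the groups. CCNB1, the mitotic cyclin, was at 24.4, 27.0 and 19.2 FPKM in Con and 18.7, 19.9 and 18.9 in IR (-0.27, SE 0.19), and CDK1 differed by -0.17 (SE 0.18), AURKA by -0.20 (SE 0.18) and MYBL2 by -0.41 (SE 0.25).

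The spindle list had the lowest median of the 4, at -0.36. In 15 of its 28 measured genes (53.6%) IR lay wholly below Con, where 4.78% of all members did so. KIF20A, the kinesin of the cleavage furrow, was at 9.93, 10.2 and 7.22 FPKM in Con and 6.57, 5.90 and 5.41 in IR (-0.53, SE 0.18). ASPM, which focuses spindle poles, was at 3.90, 4.18 and 3.63 FPKM in Con and 3.20, 2.52 and 2.12 in IR (-0.45, SE 0.13). HMMR, another spindle protein, was at 6.44, 7.15 and 5.55 FPKM in Con and 4.51, 4.85 and 4.46 in IR (-0.39, SE 0.12), and ARHGAP11A differed by -0.40 (SE 0.14). All 4 were lower in each irradiated library than in any sham library.

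Of the kinetochore, checkpoint and centromere genes 32 of 34 had a lower mean, with a median of -0.28. In 13 (38.2%) IR lay wholly below Con, where 4.78% of all members did so. CENPF differed by -0.46 (SE 0.14), CENPW, a small histone-fold protein of the centromere, by -0.42 (SE 0.14) and INCENP, the scaffold of the Aurora B complex, by -0.42 (SE 0.12). INCENP was at 6.06, 6.30 and 6.25 FPKM in Con and 5.30, 4.56 and 3.46 in IR, with the lowest level in IR 3. On the list for chromosome structure 23 of 24 had a lower mean, with a median of -0.25. The condensin subunits NCAPG2 and SMC4 differed by -0.41 (SE 0.14) and -0.33 (SE 0.12), and the cohesin subunit SMC1A by -0.27 (SE 0.08). TOP2A, which untangles sister DNA, was at 28.9, 33.1 and 23.4 FPKM in Con and 24.1, 24.7 and 19.8 in IR, and its groups overlapped (-0.30, SE 0.18). LMNB1, whose loss is used as a marker of senescence, was at 9.95, 11.7 and 9.23 FPKM in Con and 8.79, 8.18 and 8.20 in IR (-0.26, SE 0.13), and HMGB2, another such gene, differed by -0.16 (SE 0.12) with overlap.

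The medians of the mitotic genes were -0.23, -0.44 and -0.14 in pairs 1, 2 and 3, and 28 of the 110 genes were higher in pair 3. In 76 of the 110 genes (69.1%) IR was lower in every pair, where 14% of all members were. Of the sham libraries, Con 2 held the highest level of every mitotic gene named so far, and Con 3 the lowest of all but INCENP. Without Con 2 the median over the 4 lists was -0.18, and without Con 3 it was -0.38. Without IR 3 the median was -0.25, 106 of 110 had a lower mean, and the groups did not overlap in 53, where 9.32% of all members then did so.

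**Figure D2:**
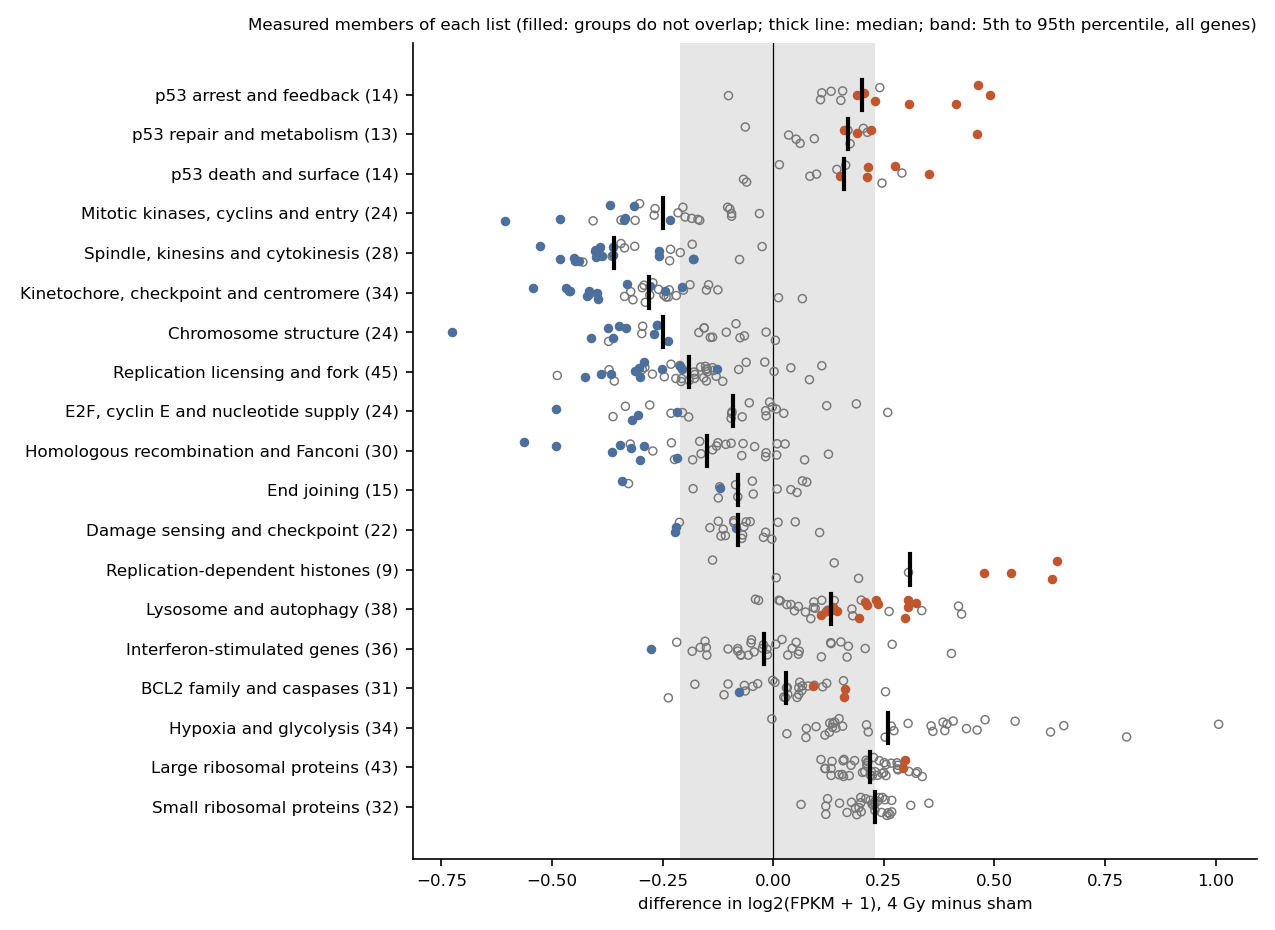
Each point is 1 measured gene of a list (rows, with the number of genes), placed by the difference IR minus Con in log2(FPKM + 1) on the horizontal axis. Filled points are genes whose groups did not overlap, orange where IR was higher and blue where it was lower; the thick line is the list median and the grey band runs from the 5th to the 95th percentile of all 10751 members, -0.21 to 0.23. The p53 lists sit to the right of 0 and the mitotic, replication and recombination lists to the left, while hypoxia and ribosomal protein genes sit to the right with few or no filled points.

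Many promoters of the mitotic genes held a CHR element and CCAAT boxes, which genes of mitosis are known for whatever their difference here. A CHR element was searched as TTTGAA or TTCGAA and a CCAAT box as CCAAT, each on both strands, in RefSeq promoters of GRCh38.p14 from 250 bases before to 50 after the start. Of the 110 mitotic genes 92 had a promoter in the table. A CHR was found in 64 of them (69.6%), against 15% of the 8641 members with a promoter and 16.4% of all 35116 promoters. A CHR together with a CCAAT box was found in 47 (51.1%), against 6.27% of members and 6.38% of all promoters. The 150 bases before the start follow for MKI67, where the groups differed most, for the kinesin gene KIF11, and for CKS2, a CDK subunit gene whose groups overlapped. CHR and CCAAT matches are in capitals, and each sequence runs 5′ to 3′ on the strand of its gene.
MKI67, chr10:128126424-128126573, minus strand: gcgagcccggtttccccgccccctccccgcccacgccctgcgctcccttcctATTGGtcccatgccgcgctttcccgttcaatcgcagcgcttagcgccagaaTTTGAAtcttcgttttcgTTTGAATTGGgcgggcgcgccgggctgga
KIF11, chr10:92592980-92593129, plus strand: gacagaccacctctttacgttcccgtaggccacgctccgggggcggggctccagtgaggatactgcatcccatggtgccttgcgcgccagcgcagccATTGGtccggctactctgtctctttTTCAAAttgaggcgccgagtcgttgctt
CKS2, chr9:89311045-89311194, plus strand: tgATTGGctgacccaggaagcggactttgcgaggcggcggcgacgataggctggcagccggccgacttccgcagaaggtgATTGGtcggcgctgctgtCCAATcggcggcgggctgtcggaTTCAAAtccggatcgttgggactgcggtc
The MKI67 stretch holds 2 CHR and 2 CCAAT matches, 1 of each side by side with shared letters. KIF11 has 1 of each and CKS2 has 1 CHR and 3 CCAAT matches. KIF11, with 4.08, 4.47 and 2.78 FPKM in Con and 2.55, 2.70 and 2.53 in IR, differed by -0.39 (SE 0.14). CKS2, with 71.9, 76.1 and 60.9 FPKM in Con and 62.5, 63.3 and 68.5 in IR, differed by -0.10 (SE 0.18). What part the elements have in the differences was not tested. The 464 members with both a CHR and a CCAAT box that are on none of the lists had a median difference of 0.00, and in 3.66% of them IR lay wholly below Con, against 4.86% of all members with a promoter.

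Genes of DNA replication were lower as a group, by less than the mitotic genes. Of 45 measured genes for licensing and the fork 41 had a lower mean, the median was -0.19, and in 11 (24.4%) IR lay wholly below Con, where 4.78% of all members did so. The median was -0.27 without Con 3 and -0.12 without Con 2. TIMELESS, which steadies stalled forks, was at 7.92, 11 and 9.26 FPKM in Con and 7.58, 6.82 and 5.74 in IR (-0.43, SE 0.13). POLA1, the polymerase that makes primers (chromosome X, 24693919 to 24996986), was at 5.20, 6.13 and 5.16 FPKM in Con and 4.76, 4.02 and 4.60 in IR (-0.25, SE 0.08). POLD1, of the lagging-strand polymerase, differed by -0.29 (SE 0.10) and CHTF18, of a clamp loader, by -0.37 (SE 0.12). All 4 had groups that did not overlap. MCM2 and MCM6, of the replicative helicase, overlapped between groups, at -0.37 (SE 0.16) and -0.13 (SE 0.08), and MCM2 was at -0.18 without IR 3. CDC6, which loads that helicase, was at 4.56, 5.87 and 3.35 FPKM in Con and 4.33, 4.05 and 3.49 in IR (-0.15, SE 0.19). PCNA, the sliding clamp and also a p53 target, was at 96.4, 120.4 and 99.5 FPKM in Con and 92.7, 125 and 126 in IR (0.11, SE 0.17), with the groups overlapping.

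On the list for E2F, cyclin E and nucleotide supply 19 of 24 genes had a lower mean, with a median of -0.09. E2F1, the activator of S phase genes (chromosome 20, 33675683 to 33686404), was at 5.66, 7.07 and 4.79 FPKM in Con and 4.28, 3.68 and 3.52 in IR (-0.49, SE 0.14), with every irradiated library lower. DNMT1, the maintenance DNA methyltransferase, differed by -0.30 (SE 0.13) with the groups apart, and by -0.14 without IR 3, and EZH2, of the Polycomb complex, by -0.21 (SE 0.11) with overlap. RRM2, the S phase ribonucleotide reductase subunit, was at 7.13, 7.68 and 5.18 FPKM in Con and 5.30, 4.57 and 4.85 in IR (-0.36, SE 0.20), and only Con 3 and IR 1 overlapped. TYMS, which makes thymidylate, differed by -0.05 (SE 0.14). CCND2, a G1 cyclin gene, ran the other way at 0.26 (SE 0.09), with overlapping groups. Of the CDK inhibitor genes beside CDKN1A, CDKN1C differed by 0.27 (SE 0.16) and CDKN2C by -0.29 (SE 0.15), both with overlap. CDKN2A, which encodes p16 and ARF and is often lost in mesothelioma, did not reach the minimum, at 0.0414 to 0.207 FPKM in Con and IR.

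Of the 45 replication genes 37 had a promoter in the table, and 18 (48.6%) held an E2F site, searched on both strands as TTTGGCGC, TTTCCCGC, TTTGCCGC or TTTCGCGC, against 6.98% of members and 3.31% of all promoters. The CHR was found in 1 of the 37 (2.70%). The 150 bases before the start follow for E2F1 and POLA1, whose groups did not overlap, and for MCM6, whose groups overlapped, with E2F and CCAAT matches in capitals.
E2F1, chr20:33686386-33686535, minus strand: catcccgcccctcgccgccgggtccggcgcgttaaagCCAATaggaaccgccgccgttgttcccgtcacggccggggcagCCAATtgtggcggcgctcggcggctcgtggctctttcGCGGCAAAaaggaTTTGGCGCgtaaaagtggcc
POLA1, chrX:24693768-24693917, plus strand: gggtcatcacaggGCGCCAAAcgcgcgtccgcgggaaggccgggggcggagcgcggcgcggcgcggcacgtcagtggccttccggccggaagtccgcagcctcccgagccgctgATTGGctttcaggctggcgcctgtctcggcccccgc
MCM6, chr2:135876444-135876593, minus strand: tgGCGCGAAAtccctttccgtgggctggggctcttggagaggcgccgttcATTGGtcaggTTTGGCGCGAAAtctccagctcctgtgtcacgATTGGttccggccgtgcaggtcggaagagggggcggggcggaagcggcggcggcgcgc
E2F1 holds 2 E2F matches, POLA1 holds 1 and MCM6 holds 3, of which 2 share letters. The 530 members with an E2F site that are on none of the lists had a median difference of -0.01, and 6.60% of them had IR wholly below Con, against 4.86% of all members with a promoter.

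Genes of homologous recombination and the Fanconi pathway, which repair breaks and crosslinks with a sister copy, had a lower mean in 25 of 30, with a median of -0.15. In 8 (26.7%) IR lay wholly below Con, where 4.78% of all members did so, and the median was -0.21 without Con 3 and -0.09 without Con 2. RAD54L, the motor that moves recombination along, was at 2.66, 4.08 and 2.53 FPKM in Con and 1.74, 1.80 and 1.65 in IR (-0.56, SE 0.16). XRCC2, another recombination gene, was at 4.40, 4.78 and 4.50 FPKM in Con and 3.35, 2.85 and 2.70 in IR (-0.49, SE 0.14). FANCD2, the monoubiquitinated core of the Fanconi pathway, was at 2.23, 2.82 and 1.77 FPKM in Con and 1.54, 1.64 and 1.61 in IR (-0.32, SE 0.12). These 3 had groups that did not overlap, while BRCA1 overlapped at -0.32 (SE 0.13). Few genes of the list had a mean of at least 5 FPKM, and the median among those few was -0.04.

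Other repair genes differed less. Of 22 genes for damage sensing and the checkpoint 19 had a lower mean, but the median was -0.08, and in 3 (13.6%) IR lay wholly below Con, where 4.78% of all members did so. TOPBP1, which activates ATR, was at 7.37, 6.89 and 7.10 FPKM in Con and 6.17, 6.02 and 5.72 in IR (-0.22, SE 0.06), and MDC1, the reader of phosphorylated H2AX, differed by -0.22 (SE 0.07). ATM and CHEK1 differed by -0.12 (SE 0.14) and -0.07 (SE 0.08), with overlapping groups, and RAD9A by -0.21 (SE 0.13). For end joining 10 of 15 had a lower mean with a median of -0.08, led by LIG3 at -0.34 (SE 0.11). PRKDC, the DNA-dependent kinase, was at 44.6 to 52.9 FPKM in Con and at 52.1, 39.7 and 28.4 in IR, with the lowest level in IR 3 and IR 1 among the sham levels (-0.33, SE 0.19, and -0.11 without IR 3). For excision and mismatch repair the median was -0.04, with OGG1, the glycosylase of oxidised guanine, apart at -0.18 (SE 0.08).

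The histone genes that were measured had mostly higher means, where the replication genes had mostly lower ones. Of 24 listed histone genes, most of them replication-dependent with RNAs that mostly lack poly(A) tails, 9 were measured. Of these 8 had a higher mean, with a median of 0.31. Most listed histone genes were not measured, so these values do not describe the histone genes of S phase as a whole. HIST1H2BK (chromosome 6, 27146418 to 27146798) was at 51.9, 51.6 and 68.7 FPKM in Con and 80.6, 78.9 and 109.5 in IR (0.63, SE 0.15), with nearly the same difference in each pair (0.62, 0.60 and 0.67). HIST1H2BD was at 5.69, 5.70 and 4.33 FPKM in Con and 7.78, 7.53 and 11.1 in IR (0.64, SE 0.16), and IR 3 was the highest. HIST1H1C, a linker histone gene, was at 8.56, 7.36 and 7.75 FPKM in Con and 11.8, 12.3 and 11.5 in IR (0.54, SE 0.14). HIST1H2AC was at 8.88, 7.63 and 9.17 FPKM in Con and 12.4, 10.1 and 14.8 in IR (0.48, SE 0.14). In these 4 (44.4% of the 9) the groups did not overlap, where IR lay wholly above Con in 5.87% of all members. All 9 were also higher in Combo than in Rx by group mean. The pair medians were 0.39, 0.35 and 0.43. Copies of histone genes are alike in sequence and could share reads, and whether the libraries selected poly(A) RNA is not given in the sources used here, so the values of single copies are uncertain.

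Lysosome and autophagy genes were higher by little but in most members. Of 38 measured genes 36 had a higher mean, the median was 0.13, and in 14 (36.8%) the groups did not overlap, where 5.87% of all members did so. GLB1, the lysosomal beta-galactosidase used as a stain for senescent cells, was at 16.6, 14.7 and 13.8 FPKM in Con and 19.1, 18.7 and 18.3 in IR (0.30, SE 0.09). NPC2, which exports cholesterol from lysosomes, differed by 0.32 (SE 0.10), and the membrane protein CD63 by 0.30 (SE 0.10). All 3 were higher in each irradiated library. The pair medians were 0.08, 0.21 and 0.20, 24 of 38 (63.2%) were higher in every pair, and without IR 3 the median was 0.15.

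The 15 higher genes with the smallest p were chosen by no list. PLTP, which transfers phospholipids between lipoproteins (chromosome 20, 45898621 to 45912155), had the lowest p of the members, at 31.4, 26.5 and 27.2 FPKM in Con and 38.9, 37.2 and 41.5 in IR (0.46, SE 0.08, adjusted p = 0.621 by limma). LRPAP1, a chaperone of lipoprotein receptors, was at 13.1, 11.9 and 11.9 FPKM in Con and 16.1, 15.3 and 15.4 in IR (0.32, SE 0.06). ATP6AP2, an accessory subunit of the vacuolar proton pump, differed by 0.32 (SE 0.07), IDS, the lysosomal iduronate sulfatase, by 0.26 (SE 0.06), and SIAE, a sialic acid esterase, by 0.30 (SE 0.07). RAB31, a small GTPase of vesicle transport, was at 3.10, 2.74 and 2.71 FPKM in Con and 3.79, 3.83 and 3.83 in IR (0.32, SE 0.07). Others of the 15 were EFNB1, an ephrin ligand, at 0.39 (SE 0.08), EIF4A2, a translation helicase, at 0.31 (SE 0.07), and GAMT, of creatine synthesis, at 0.32 (SE 0.07). MOXD1 was at 0.32 (SE 0.07) and NIPAL4, an ichthyosis gene, at 0.36 (SE 0.09). These genes were picked by p among those whose groups did not overlap, so neither is a separate result.

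Of the 15 lower genes with the smallest p, 8 are on none of the lists. CACNG8, a regulator of glutamate receptors and calcium channels, was at 10.3, 11.2 and 11.1 FPKM in Con and 8.17, 8.84 and 7.52 in IR (-0.37, SE 0.07). MADD, a regulator of RAB3 and of death receptor signals, was at 8.40, 9.38 and 9.89 FPKM in Con and 7.01, 7.16 and 6.33 in IR (-0.38, SE 0.08). PI4KA, the plasma membrane phosphatidylinositol 4-kinase, differed by -0.39 (SE 0.08), TMEM79 by -0.41 (SE 0.11) and RHOF, a small GTPase of filopodia, by -0.40 (SE 0.11). EME2, part of a structure-specific nuclease, and FIGNL1, an ATPase of recombination, stood at -0.43 (SE 0.12) and -0.29 (SE 0.08), and C18orf54 was the other of the 8.

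Of the 45 members that differed by more than 0.5, 20 had groups that did not overlap. The 11 below -0.5 and apart include MKI67, FOXM1, RAD54L, CENPE and KIF20A, described above. PRR11, which is on no list, was at 8.98, 9.13 and 7.22 FPKM in Con and 7.12, 5.25 and 4.12 in IR (-0.56, SE 0.17). The 9 above 0.5 and apart include 3 of the histone genes and SERPINB2, which encodes the protease inhibitor PAI-2, at 174, 106 and 119 FPKM in Con and 214, 176 and 185 in IR (0.56, SE 0.18). COMMD6 was at 7.10, 7.59 and 6.69 FPKM in Con and 10.0, 9.77 and 16.9 in IR (0.66, SE 0.18). Beyond 1 on this scale were SIK1, NDRG1 and BOLA2B, named after their values were seen. SIK1, a salt-inducible kinase, was at 1.04, 1.15 and 1.17 FPKM in Con and 6.97, 4.90 and 1.35 in IR (1.18, SE 0.37), so IR 3 was close to the sham level. SIK1 and BOLA2B have near-identical copies in the genome with which reads could be shared, so these values are uncertain.

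Genes of the death machinery outside the p53 lists were little different. Over 31 genes of the BCL2 family and caspases the median was 0.03, with 21 higher, where 54.2% of all members were. BAK1, a pore-forming member, was at 9.99, 10.4 and 10.1 FPKM in Con and 11.5, 11.4 and 11.6 in IR (0.16, SE 0.07), with IR apart above Con by little. BCL2L1, which encodes the survival protein BCL-XL, differed by 0.25 (SE 0.13) with overlap, and FADD by -0.18 (SE 0.09).

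Secreted factors were higher on average with wide spread between libraries. Of 30 genes for NF-kB and secreted factors 26 had a higher mean, with a median of 0.17. In 3 (10.0%) IR lay wholly above Con, where 5.87% of all members did so, and in 1, NFKB1, wholly below. The median was 0.10 without Con 2 and 0.30 without Con 1. IGFBP6, a growth factor binding protein, was at 328, 302 and 335 FPKM in Con and 377, 417 and 449 in IR (0.36, SE 0.14). IGFBP3 ran from 7.88 to 20.7 FPKM among the sham libraries and from 16.7 to 25.4 after radiation (0.67, SE 0.30). TIMP1 differed by 0.36 (SE 0.20) and PLAUR, the urokinase receptor, by 0.31 (SE 0.15). CXCL8, the neutrophil chemokine, was near the minimum, at 0.684 to 1.26 FPKM in Con and 0.599 to 1.64 in IR.

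Of 29 immediate early genes 24 had a higher mean, with a median of 0.13. In 5 (17.2%) IR lay wholly above Con, where 5.87% of all members did so. IER5, a p53- and stress-induced gene, was at 46.4, 46.3 and 48.2 FPKM in Con and 53, 53.8 and 58.2 in IR (0.22, SE 0.06). DUSP5 and DUSP1, phosphatases of MAP kinases, differed by 0.36 (SE 0.11) and 0.37 (SE 0.16), and ATF3, a stress transcription factor, by 0.28 (SE 0.10).

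Interferon-stimulated genes were not higher 48 h after radiation in these libraries. Of 36 measured genes 16 had a higher and 20 a lower mean, with a median of -0.02 and pair medians of 0.06, 0.01 and -0.16. ISG15, a ubiquitin-like modifier, was at 30.6, 22.9 and 36.0 FPKM in Con and 45, 22.3 and 44.6 in IR (0.27, SE 0.28), and IFIT1 differed by -0.06 (SE 0.19). OAS3, which senses double-stranded RNA, was apart and lower at -0.28 (SE 0.11), with its lowest level in IR 3. The 25 measured genes for antigen presentation and immune ligands had a median of 0.02. Of them 15 were higher and 10 lower, where 54.2% of all members were higher. In 5 (20.0%) IR lay wholly above Con, where 5.87% of all members did so. In 1 (4.00%), NLRC5, it lay wholly below, where 4.78% of all members did so. Of MHC class I genes, HLA-B was at 425, 387 and 416 FPKM in Con and 451, 509.7 and 566 in IR (0.31, SE 0.11), with every irradiated library higher. HLA-E differed by 0.28 (SE 0.10) and B2M, the shared light chain, by 0.30 (SE 0.10), also with the groups apart. In pair 1 the differences of these 3 genes were 0.09, 0.19 and 0.08, each the smallest of its 3 pairs. The class I genes share sequence and could share reads. CD274, which encodes PD-L1, was at 1.21, 1.72 and 1.36 FPKM in Con and 1.33, 2.24 and 1.18 in IR (0.07, SE 0.15).

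Hypoxia and glycolysis genes had a median of 0.26, above that of the p53 targets, and 33 of 34 had a higher mean, yet in none did the groups separate. The sham libraries differed widely among themselves. NDRG1, a hypoxia-induced gene, was at 42.1, 13.6 and 4.34 FPKM in Con and 43.5, 25.1 and 22.5 in IR, a difference of 1.01 with an SE of 0.62. ENO2, a glycolytic enolase, was at 47.3, 24.1 and 10.5 FPKM in Con and 44.9, 34.6 and 32.3 in IR (0.66, SE 0.43). CA9, the hypoxia-induced carbonic anhydrase, was at 19.0, 12.1 and 1.49 FPKM in Con and 12.5, 18.7 and 12 in IR (0.80, SE 0.70). P4HA1, a collagen hydroxylase, was at 64.7, 40.3 and 25.5 FPKM in Con and 66.2, 57.4 and 56.0 in IR (0.55, SE 0.26), and BNIP3, a mitophagy receptor, differed by 0.44 (SE 0.27). Con 1 and IR 1 were nearly equal for NDRG1, P4HA1 and BNIP3, and Con 3 was the lowest library for all 5. The pair medians of the list were -0.01, 0.23 and 0.51, and without Con 3 its median was 0.02. ANGPTL4, a secreted lipase inhibitor on another list, followed the same order in the sham libraries, at 19.6, 2.91 and 2.07 FPKM.

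**Figure D3:**
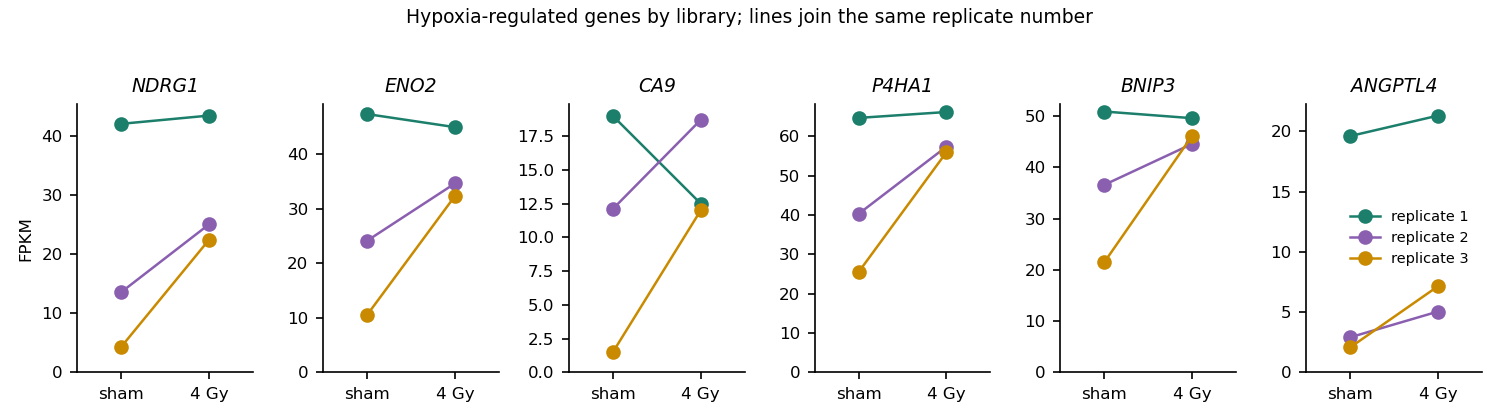
Levels in FPKM (vertical axis, from 0) of 6 hypoxia-regulated genes in sham and irradiated vehicle libraries, with lines joining the same replicate number. Replicate 1 stays nearly level in 5 of the panels and replicate 3 starts lowest and climbs in all, as for NDRG1 from 4.34 to 22.5 FPKM, so the groups overlap in each panel.

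All 75 ribosomal protein genes had a higher mean after radiation, with a median of 0.22. Only in 2 (2.67%), RPL10 and RPL11, did IR lie wholly above Con, where 5.87% of all members did so. RPL11 was at 265, 274 and 269 FPKM in Con and 275, 343 and 383 in IR (0.29, SE 0.12). RPS27 was at 299.9, 311 and 315 FPKM in Con and 289, 437 and 483 in IR (0.35, SE 0.17), so IR 1 was below the sham libraries and IR 2 and IR 3 above. The pair medians over the 75 genes were -0.04, 0.26 and 0.45, and without IR 3 the median was 0.08 with 69 higher. Mitochondrially encoded genes, with a median of 0.15, and nuclear-encoded respiratory chain genes, with 0.10, followed the same order of pairs, at -0.06, 0.24 and 0.29 and at 0.00, 0.03 and 0.27. Without IR 3 both medians were below 0, at -0.05 and -0.01. Ribosomal protein genes have many processed copies with which reads could be shared, so single values are uncertain.

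**Figure D4:**
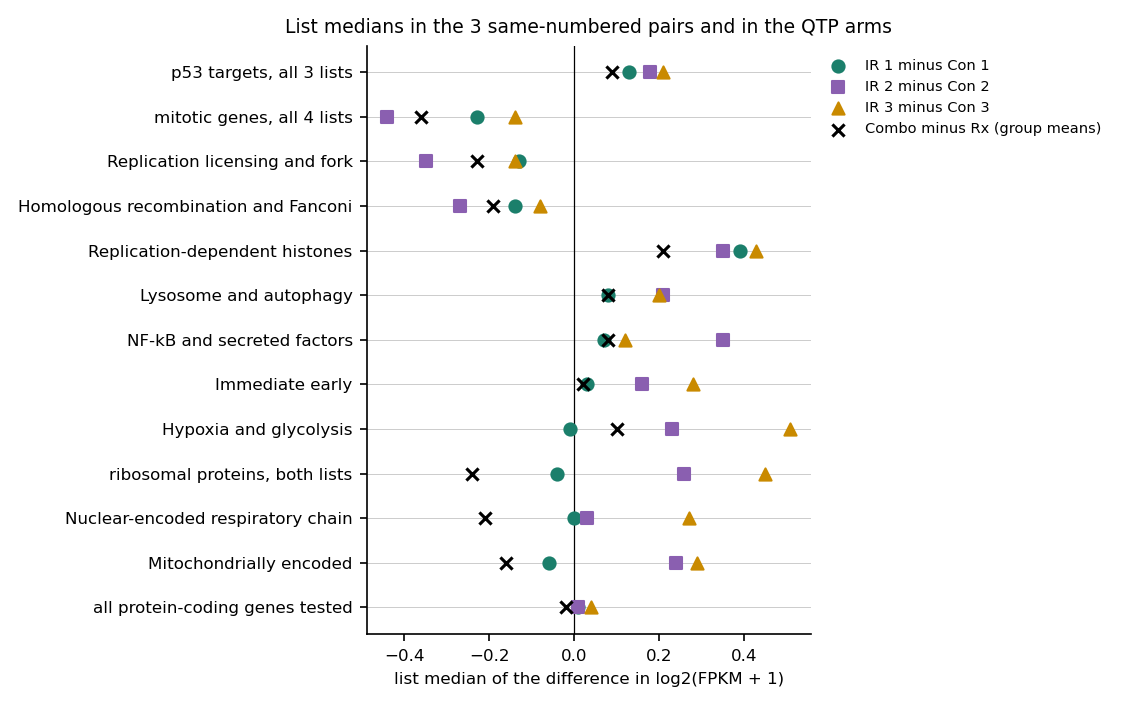
Median difference in log2(FPKM + 1) of each list (rows) in the 3 same-numbered pairs (coloured symbols) and in Combo minus Rx (crosses, group means). All 3 pairs lie on the same side of 0 for the p53, mitotic, replication, recombination, histone, lysosome, NF-kB and immediate early lists. They do so for all genes too, at 0.01, 0.01 and 0.04. Hypoxia, ribosomal and respiratory chain lists run from near 0 in pair 1 to between 0.27 and 0.51 in pair 3.

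The difference between the groups also ran with gene length. Its median was 0.14 over the 98 members under 1 kb and 0.10 over the 745 members of 1 to 2 kb, and -0.04 over the 2362 members of 8 kb or more. In pair 3 these medians were 0.31, 0.24 and -0.13, in pair 2 they were 0.14, 0.06 and -0.01, and in pair 1 they were 0.03, -0.01 and 0.03. In Combo minus Rx they ran the other way, at -0.16, -0.14 and 0.07. Members at 100 FPKM or more, 268 in all, had a median of 0.16, with -0.02, 0.17 and 0.30 in pairs 1, 2 and 3, and those of 1 to 5 FPKM -0.01. The median length of the ribosomal protein genes was 3109 bases, of the mitotic genes 4293, of the p53 targets 3579 and of all members 5140. For the 9 measured histone genes it was 1668, and HIST1H2BK, HIST1H1C and HIST1H2BD had 381, 642 and 871 bases. What part length has in the list medians was not tested.

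**Figure D5:**
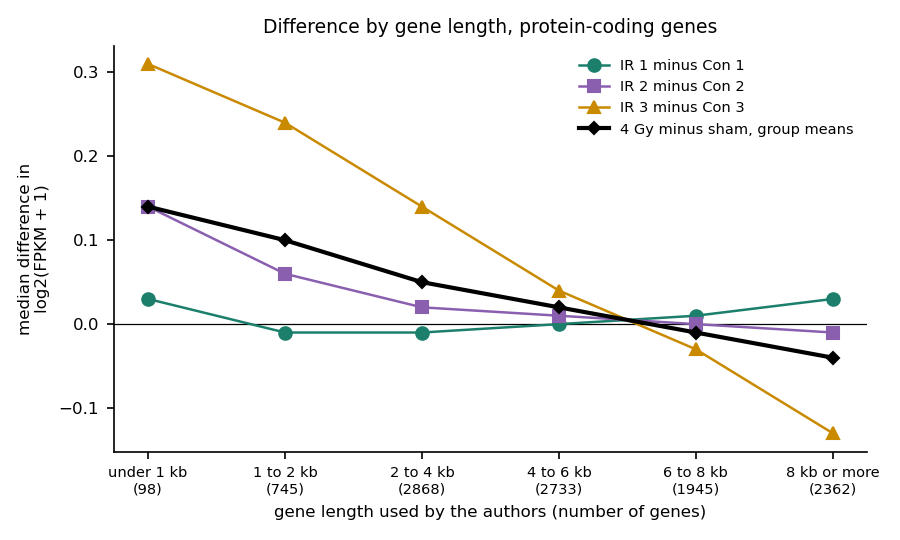
Median difference in log2(FPKM + 1) (vertical axis) of protein-coding genes in 6 classes of gene length (horizontal axis, with the number of genes), for each same-numbered pair and for the group means. The line of pair 3 runs from 0.31 for the shortest genes to -0.13 for the longest, and that of pair 1 stays between -0.01 and 0.03.

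Most stress programmes had medians near that of all members, while lipid synthesis lists had medians below 0. The integrated stress response had a median of 0.01 over 21 genes, with ATF5 apart and higher at 0.27 (SE 0.09) and DDIT3, which encodes CHOP, overlapping at 0.32 (SE 0.15). Cytosolic heat shock genes had a median of 0.01 over 20, NRF2 antioxidant genes 0.03 over 28 and proteasome subunits 0.02 over 29. FTL, the ferritin light chain, stood out of the NRF2 list at 2007, 1773 and 1774 FPKM in Con and 2272, 2433 and 2350.1 in IR (0.35, SE 0.13). Of 22 endoplasmic reticulum chaperone genes 20 had a higher mean with a median of 0.08, among them HSP90B1 at 0.26 (SE 0.09) and PDIA3 at 0.25 (SE 0.09). Cholesterol synthesis genes had a median of -0.14 with 20 of 24 lower, and in 4 (16.7%) IR lay wholly below Con, where 4.78% of all members did so. They were lower in all 3 pairs in 13 of 24 (54.2%, against 14% of members), the median ran from -0.26 without Con 3 to -0.06 without Con 2, and in Combo minus Rx it was 0.03 with 15 of 24 higher. Fatty acid synthesis genes had a median of -0.11 with 14 of 17 lower, and it ran from -0.17 without Con 3 to -0.03 without Con 2. In 1 of the 17 (5.88%) IR lay wholly below Con, near the 4.78% of all members. In Combo minus Rx the median of this list was 0.06, with 10 of 17 higher. Matrix and TGF-beta genes had a median of 0.10, which was -0.00 without IR 1 and 0.23 without Con 1, YAP and TAZ targets 0.01, and stem and initiating cell genes 0.10 over 9, among which CD44 was at 0.17 (SE 0.10).

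The arms with QTP hold the same contrast of 4 Gy and sham and share no library with IR minus Con, although all 12 libraries set the filter and the estimate of spread. In Combo against Rx limma called 0 genes at an adjusted p of 0.05, and 234 protein-coding genes (2.18%) were higher and 767 (7.13%) lower at an unadjusted p under 0.05. Of the 293 genes that were lower with radiation alone at an unadjusted p under 0.05, 236 (80.5%) were also lower in Combo than in Rx, where 56.5% of all members were, and their median there was -0.10. Of the 405 higher genes 204 (50.4%) were also higher, where 43.5% of all members were, and their median there was 0.00. Mitotic genes had a median of -0.36 in Combo minus Rx with 108 of 110 lower, and MKI67, CENPE and FOXM1 stood at -0.38 (SE 0.21), -0.27 (SE 0.11) and -0.49 (SE 0.14). The p53 targets had a median of 0.09 with 28 of 41 higher. CDKN1A was at 0.32 (SE 0.11) and MDM2 at 0.33 (SE 0.15), while PLK2 was at 0.00 (SE 0.07) and FAS at -0.01 (SE 0.09). Ribosomal protein genes had a median of -0.24 in Combo minus Rx, against 0.22 without QTP. The test of the difference between both contrasts, the interaction, gave 0 genes at an adjusted p of 0.05 by limma and 733 protein-coding genes (6.82%) at an unadjusted p under 0.05. Among these were 48 of the 75 ribosomal protein genes, 2 of the 110 mitotic genes and 4 of the 41 p53 targets.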

How the data were processed

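Gene-level RNA-seq values of 12 libraries in 4 groups of 3 were used as deposited. The authors' FPKM were on hg38, per the submitters' processing notes, and no source used here names the aligner, the counter or the strand setting. FPKM times gene length gave whole reads for 100.0% of values within 0.01, so each library's depth could be recovered. Here log2(FPKM + 1) of the 13038 genes (of 58735) averaging 1 FPKM or more was fitted with limma 3.58.1 in R 4.3.3 (variance trend, groups only, all 12 libraries sharing 1 estimate of spread), with Benjamini-Hochberg adjustment over all 13038 and a threshold of 0.05, two-sided. On this scale the change of low genes is understated. The script was tested on simulated data.

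Members and gene lists were chosen with earlier results of these data known. The genes named are the 15 with the smallest p in each direction among genes of at least 200 bases whose groups did not overlap, up to 4 per list by smallest p, a set of well-known p53, cell cycle, repair and immune genes, and, chosen after values were seen, genes past 0.5 and those with a promoter shown. Deviations of same-numbered Con and IR libraries from their group means correlated at 0.161 to 0.354, and differently numbered ones at -0.272 to 0.124, so the numbers were taken to pair these libraries. The labels give the numbers and do not say what they share. Promoters are RefSeq's, GRCh38.p14. Alternatives were other pseudocounts, filters, scalings, weights, the replicate block, limma voom on recovered reads, and each library left out. Some genes of the lists are counted but not reported here by name.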

Additional observations from a re-analysis of the deposited data

How the results depend on the processing

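Without a filter on low values, 5 genes passed the adjusted threshold by limma for IR against Con, 4 for Combo against Rx and 6 for the interaction. Library weights gave 1013, but the fit of the weights stopped before it converged, and a gene-by-gene method added after seeing the data gave 683, with IR 2 weighted at 8.2. The replicate block over all 12 libraries gave 0 on log2(FPKM + 1), and 2 with voom on recovered reads. On log2(FPKM + 1) with only Con and IR in the fit, added after seeing the data, it gave 0. Leaving out 1 library gave 0 to 3, the 3 without IR 1, and likewise 0 to 3 for the interaction. Genes at an unadjusted p under 0.05 numbered 1903 with no filter, 507 at 5 FPKM or more, 3736 and 3406 with the 2 kinds of weights, and 550 (without Con 2) to 2007 (without IR 1) with 1 library left out. edgeR and DESeq2, planned for counts, were not run, because the values are FPKM.

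The histone median was 0.42 with a pseudocount of 0.1 and 0.54 at 5 FPKM or more, and 0.26 to 0.52 with 1 library left out. The recombination median was -0.04 at 5 FPKM or more, where few of its genes remained. It was -0.29 with voom and -0.26 with voom and the block, and the mitotic median was -0.41 with either voom fit. These voom medians are on log2 of reads scaled to the library, so their sizes do not compare directly with the others. Of the 40 list medians 12 turned sign in at least 1 setting that did not leave out a single library, none with a size over 0.15 as reported. Among single genes, signs turned for CXCL8 (-0.20 and -0.15) and ISG15 (-0.30 and -0.21) under the 2 kinds of weights and for PCNA (-0.04) under quantile normalization. With 1 library left out, CA9 ran from -0.10 to 1.40, CD274 from -0.10 to 0.18, CDC6 from -0.32 to 0.01, IFIT1 from -0.20 to 0.09 and TYMS from -0.12 to 0.05. The cause was not tested.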

Other observations

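The members' differences were spread over the chromosomes, with medians near 0. IR lay wholly above Con in 9.89% of members on chromosome 6 and 9.66% on chromosome X, against 5.87% of all members. The 893 members that encode transcription factors had a median difference of 0.01. Of these, 36 were wholly above and 43 wholly below Con, where 5.87% and 4.78% of all members were. The 61 homeobox genes among the 893 had a median of 0.05.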
